A study of Homo sapiens with 3 samples.

Results

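Transcripts of 10 genes were examined in single cells of OVCAR3 treated with an inhibitor of the small GTPase RAC1. The genes were the cytoplasmic actins *ACTB* and *ACTG1*, the actin-binding and myosin genes *TAGLN*, *TPM1* and *MYL9*, the transcription factor *SRF*, and *CCN1*, *CCN2*, *ANKRD1* and *AMOTL2*, which are targets of the coactivators YAP and TAZ. They were chosen by symbol with earlier results of these data known, and all 10 were found among the 36601 genes counted. All are protein-coding. OVCAR3 is an established human line grown from high-grade serous ovarian cancer. The cells were cultured for 48 hours with DMSO, with 50 μM of the RAC1 inhibitor NSC23766 (RAC1i, titled RACi in the labels), or with 50 μM NSC23766 and 5 μM of the EZH2 inhibitor GSK126 (Combo). Both inhibitors were dissolved in DMSO, and all cells were detached with trypsin before capture. Each condition was 1 library from 1 cell line. No test between conditions was therefore possible, and a difference between libraries had no replicate check. Cells given EZH2i alone were not analysed here.

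Cells sense their actin cytoskeleton through a pair of transcriptional circuits. Globular actin holds the coactivators MRTF-A and MRTF-B in the cytoplasm, and when it is built into filaments they enter the nucleus and drive, with SRF, genes of actin, its binding proteins and the contractile machinery through a sequence named the CArG box. YAP and TAZ are held back by the kinases LATS1 and LATS2 of the Hippo pathway and respond to tension in the same filaments. In the nucleus they bind TEAD factors on the TEAD motif and raise *CCN1*, *CCN2*, *ANKRD1* and *AMOTL2*. RAC1 signals through the WAVE and Arp2/3 complexes to build branched actin at the cell edge.

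The promoters that hold these motifs are shown because the 2 circuits read them. RefSeq sequence before the start site (GRCh38.p14, 250 bases) was at hand for 6 of the 10 genes, namely *ACTG1*, *TPM1*, *SRF*, *CCN2*, *ANKRD1* and *AMOTL2*. The letters GGAATG, the core of the TEAD motif, were searched on both strands, as was the CArG box. Capitals mark the matches, which did not overlap, and all sequences read 5′ to 3′ towards the start. The windows of *AMOTL2* and *ACTG1* overlap exons of longer transcripts, so only 30 bases around the match are printed.

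CCN2, chr6:131951373-131951622, reverse strand: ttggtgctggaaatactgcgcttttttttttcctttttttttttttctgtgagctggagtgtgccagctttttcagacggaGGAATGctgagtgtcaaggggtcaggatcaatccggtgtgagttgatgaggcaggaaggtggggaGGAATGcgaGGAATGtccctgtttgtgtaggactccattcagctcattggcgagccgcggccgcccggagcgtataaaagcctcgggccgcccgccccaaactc
ANKRD1, chr10:90921088-90921337, reverse strand: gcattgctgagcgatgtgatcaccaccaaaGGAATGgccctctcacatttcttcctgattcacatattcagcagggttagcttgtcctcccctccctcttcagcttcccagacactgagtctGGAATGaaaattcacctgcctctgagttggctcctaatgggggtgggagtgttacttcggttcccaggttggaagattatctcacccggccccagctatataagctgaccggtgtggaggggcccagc
AMOTL2, chr3:134374499-134374528, reverse strand: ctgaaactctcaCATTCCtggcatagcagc
SRF, chr6:43171019-43171268, forward strand: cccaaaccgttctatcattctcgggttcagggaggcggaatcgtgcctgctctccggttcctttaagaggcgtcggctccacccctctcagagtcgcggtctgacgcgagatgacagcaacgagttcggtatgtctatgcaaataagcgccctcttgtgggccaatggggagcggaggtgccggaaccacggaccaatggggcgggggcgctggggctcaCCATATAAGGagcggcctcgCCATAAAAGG
ACTG1, chr17:81512874-81512903, reverse strand: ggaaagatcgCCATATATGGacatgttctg

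The TEAD motif was found 3 times before *CCN2*, 2 times before *ANKRD1* and 1 time before *AMOTL2*, there as CATTCC of the other strand. Of 35116 promoters in RefSeq of the same length, 11.9% held at least 1 such match, 0.94% at least 2 and 0.0826% at least 3. The CArG box was found 2 times before *SRF* itself and 1 time before *ACTG1*, against 1.16% of promoters with at least 1 and 0.0313% with at least 2. Neither motif was found in the window of *TPM1*, nor before a further start that the table lists for *AMOTL2* and for *SRF*. The window of *TPM1* (chr15:63048239-63048488) lies inside the gene, and the sequence before the 5′ end of the gene was not searched. A match describes the letters and is not a measurement of binding.

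Unique molecular identifiers (UMIs), each standing for 1 captured mRNA molecule read at its 3′ end, were summed over the kept cells and given per 1000000 UMIs of the library (CPM). A molecule counts once whatever its length, so levels were not divided by gene length. The kept cells of DMSO, RAC1i and Combo numbered 7531, 10215 and 8239, with 199063947, 234969742 and 212792113 UMIs. The median cell held 26750, 20989 and 24953 UMIs, and the median mitochondrial share was 5.60%, 1.66% and 1.58%. Of the kept cell barcodes, 23 of RAC1i and 15 of Combo also stood in DMSO, and 21 of Combo also stood in RAC1i. All 7 markers of secretory epithelial cells reached 10 CPM in DMSO and RAC1i, and all but *WT1* (7.87 CPM) did in Combo. Summed, they had 3530 CPM in DMSO, 1893 CPM under RAC1i and 2088 CPM under Combo. Each of the 7 was lower than in DMSO in both treated libraries, from *EPCAM* (320, 274 and 302 CPM) to *PAX8* (355, 54.3 and 47.8 CPM). Every one of the markers of fibroblasts (7), smooth muscle (5), leukocytes (3) and endothelium (3) was under 10 CPM in each library. Summed, the fibroblast markers ranged from 5.78 to 6.01 CPM, nearly all of it *COL1A1*, those of leukocytes from 0.261 to 0.647 CPM and those of endothelium from 1.22 to 1.88 CPM. *RAC1* stood at 461.6 CPM in DMSO, 589.7 CPM under RAC1i and 576.6 CPM under Combo. *EZH2* stood at 32.1, 12.4 and 15.2 CPM. Intervals are exact, at 95%, and cover counting error only.

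The 10 genes did not move together (the plot of levels by gene). *ANKRD1*, *CCN1*, *TPM1* and *AMOTL2* were over 2-fold higher in RAC1i than in DMSO. *ACTG1* and *CCN2* differed little in CPM over all cells, although *CCN2* changed with the weight given to each cell, and *ACTB* was lower. Of the 8 genes that reached 10 CPM in either library, 4 were past 2-fold higher and 0 lower. *ANKRD1*, which is among the 4, and *SRF*, which is not, reached 10 CPM only in the treated libraries. Among all 8778 genes at that level, 13.1% were past 2-fold higher and 24.6% lower. As the 10 genes were chosen with earlier results of these data known, the shares of all genes are given for scale only. For Combo over DMSO, 3 of the 8 were past 2-fold higher (*ANKRD1*, *CCN1* and *TPM1*) and 0 lower, against 11.8% and 22.8% of 8745 genes. The other 2 genes, *TAGLN* and *MYL9*, stayed below 10 CPM. Over all genes at that level, log2 ratios of CPM plus 1 had a median of -0.20 for RAC1i and -0.17 for Combo over DMSO, which size factors moved to -0.07 and -0.04 and totals without mitochondrial genes to -0.27 and -0.25, so ratios can be read against a shift of that size.

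**Figure D1:**
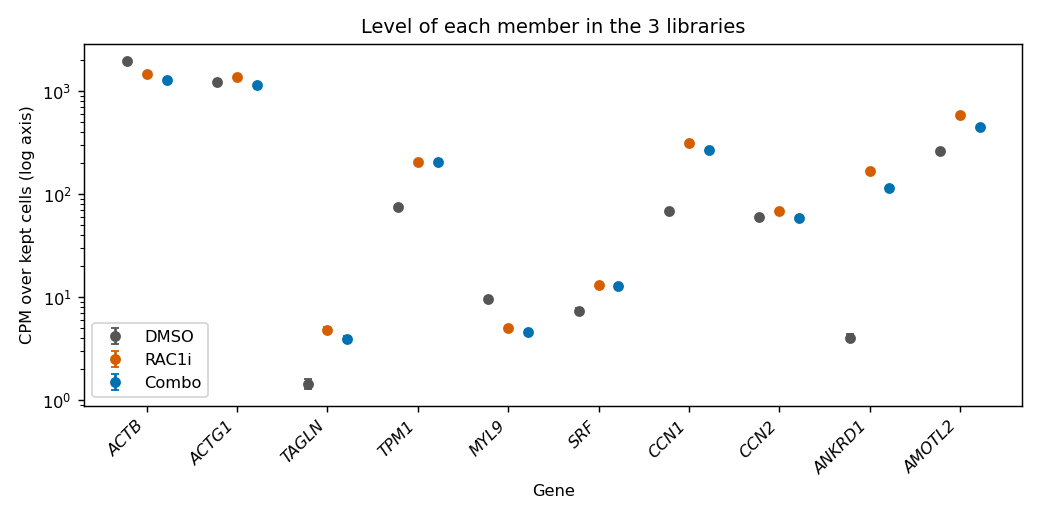
Level of each of the 10 genes in DMSO (grey), RAC1i (orange) and Combo (blue), in CPM over the kept cells on a log axis, where a point is 1 library and bars are exact Poisson intervals at 95%. *ANKRD1* stands at 4.06 CPM in DMSO and at 166 and 113 CPM in the treated libraries, while the 3 points of *ACTG1* and those of *CCN2* lie close together.

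*ACTB* (GRCh38 chr7:5526409-5563902, reverse strand) and *ACTG1* (chr17:81509413-81523847, reverse) encode the actins of which the filaments of non-muscle cells are made. *ACTB* had 1971 CPM in DMSO (95% interval 1965 to 1977), 1451 CPM under RAC1i (1446 to 1456) and 1288 CPM under Combo (1283 to 1293). It was 1.36-fold lower in RAC1i (1.35 to 1.36) and 1.53-fold lower in Combo (1.52 to 1.54) than in DMSO. *ACTG1* did not follow it. Its levels were 1209.6 CPM in DMSO (1205 to 1214), 1364 CPM under RAC1i (1359 to 1369) and 1137 CPM under Combo (1132 to 1141), a ratio of 1.13 for RAC1i and of 0.940 for Combo over DMSO. The order of *ACTG1* in Combo and DMSO turned under 2 of 10 other ways of scaling or choosing cells, while *ACTB* was lower in all 10 of both comparisons. The coding sequences of both are nearly identical and have many processed pseudogenes, and how many reads were set aside as ambiguous is not given in the sources used here.

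The muscle actins were low, and no muscle actin reached 2 CPM in any of the 3 libraries. *ACTG2*, an actin of smooth muscle, stood at 0.301 CPM in DMSO, 1.86 CPM under RAC1i and 1.35 CPM under Combo, a ratio to DMSO of 6.18 (4.71 to 8.24) and 4.47 (3.38 to 6.01). *ACTA1*, the actin of skeletal muscle, stood at 0.0402, 1.05 and 1.12 CPM, a ratio of 26.2 (13.1 to 61.3) and 27.9 (14.0 to 65.5). *ACTA2*, the actin of vascular smooth muscle and of myofibroblasts, stood at 0.467, 0.349 and 0.493 CPM, and both of its intervals took in no difference. Of the list of 6 actins only *ACTB* and *ACTG1* reached 10 CPM, neither was past 2-fold, and their median log2 ratio of CPM plus 1 was -0.13 for RAC1i and -0.35 for Combo over DMSO and -0.22 for Combo over RAC1i. Over all 6 actins, with the low muscle genes included, the medians over DMSO had the other sign, at 0.24 for RAC1i and 0.13 for Combo.

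*SRF* (chr6:43171269-43181506, forward strand of GRCh38) encodes the factor that binds the CArG box and is itself among the genes with such boxes before the start. It had 7.41 CPM in DMSO (7.04 to 7.80), 13 CPM under RAC1i (12.6 to 13.5) and 13 CPM under Combo (12.5 to 13.5). The ratio to DMSO was 1.76 in RAC1i (1.65 to 1.87) and 1.75 in Combo (1.64 to 1.86), short of 2-fold. With every cell weighted alike, the log2 ratio of *SRF* was 1.02 for RAC1i and 1.05 for Combo. Among its partners, *MRTFA* had 6.66, 7.75 and 8.16 CPM in DMSO, RAC1i and Combo, and *MRTFB* had 9.58, 3.46 and 4.0 CPM. *MRTFB* was thus 2.77-fold lower in RAC1i (2.55 to 3.01), while *MRTFA* was 1.16 times its DMSO level. The ternary complex factors, which join SRF at immediate early genes, also split. *ELK3* had 11.1 CPM with DMSO against 2.75 CPM under RAC1i and 2.68 CPM under Combo, *ELK4* had 30.5, 54.3 and 51.1 CPM, and *ELK1* had 12.2, 11.5 and 11.8 CPM.

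*TPM1* (chr15:63042620-63071915), *TAGLN* (chr11:117199370-117207464) and *MYL9* (chr20:36541497-36551447), all on the forward strand of GRCh38, are cytoskeletal targets of SRF. *TPM1* encodes a tropomyosin that lies along the actin filament. It had 75.8 CPM in DMSO (74.6 to 77.0), 203 CPM under RAC1i (201 to 205) and 207 CPM under Combo (205 to 209), so it was 2.68-fold higher in RAC1i (2.63 to 2.73) and 2.73-fold higher in Combo (2.68 to 2.78). *TAGLN*, which encodes the actin-binding protein transgelin, was the lowest of the 10 genes in DMSO at 1.45 CPM (1.28 to 1.62). It had 4.8 CPM under RAC1i (4.53 to 5.09) and 3.97 CPM under Combo (3.71 to 4.25), or 3.32 times (2.92 to 3.79) and 2.74 times (2.40 to 3.15) the DMSO level. Beside *TAGLN*, the 5 markers of smooth muscle, which include *ACTG2*, summed to 0.588, 2.60 and 2.31 CPM in DMSO, RAC1i and Combo, with 4, 5 and 5 of them holding a UMI, and their part in the level of *TAGLN* was not tested. *MYL9*, a regulatory light chain of non-muscle and smooth muscle myosin, went the other way. Its 9.55 CPM in DMSO (9.13 to 9.99) stood against 5.02 CPM under RAC1i (4.74 to 5.31) and 4.56 CPM under Combo (4.28 to 4.86), which was 1.90-fold (1.77 to 2.05) and 2.09-fold lower (1.94 to 2.26). The direction of all 3 was the same under each of 10 alternatives in both comparisons with DMSO.

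The 4 targets of YAP and TAZ differed among themselves. *ANKRD1* (GRCh38 chr10:90912096-90921087, reverse strand) encodes an ankyrin repeat protein of the nucleus and the sarcomere and is a widely used readout of YAP. It had 4.06 CPM in DMSO (3.79 to 4.35), 166 CPM under RAC1i (165 to 168) and 113 CPM under Combo (112 to 115). That was 40.9-fold higher in RAC1i (38.1 to 43.9) and 27.9-fold higher in Combo (26.0 to 30), and 9 of the 8778 genes at 10 CPM had a larger log2 ratio of CPM plus 1 in RAC1i. *CCN1* (chr1:85580761-85584589, forward), a secreted matricellular protein known as CYR61, had 69.0 CPM in DMSO (67.9 to 70.2), 312 CPM under RAC1i (310 to 314) and 268 CPM under Combo (266 to 271). Its ratio to DMSO was 4.52 (4.43 to 4.60) in RAC1i and 3.89 (3.81 to 3.96) in Combo.

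*AMOTL2* (GRCh38 chr3:134355347-134375479, reverse strand), an angiomotin that binds YAP and belongs to the feedback of the Hippo pathway, had 262 CPM in DMSO (259.8 to 264), 579 CPM under RAC1i (575 to 582) and 444 CPM under Combo (441 to 447). It was 2.21-fold higher in RAC1i (2.19 to 2.23) and 1.70-fold higher in Combo (1.68 to 1.71). *CCN2* (chr6:131948176-131951372, reverse) is the paralog of *CCN1* known as CTGF. Its promoter is the one with 3 TEAD motifs. It had 60.5 CPM in DMSO (59.4 to 61.6), 68.1 CPM under RAC1i (67.1 to 69.2) and 59.1 CPM under Combo (58.1 to 60.2). The ratio was 1.13 in RAC1i (1.10 to 1.15) and 0.978 in Combo (0.953 to 1.00), and the latter turned direction under 5 of 10 alternatives. Over the 10 alternatives the log2 ratio of *CCN2* ran from 0.00 to 0.85 for RAC1i, lowest in cells with at least 10000 UMIs and highest with every cell weighted alike, and from -0.19 to 0.67 for Combo.

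The libraries with and without the EZH2 inhibitor were close. None of the 8 genes at 10 CPM was past 2-fold between Combo and RAC1i, and of 7443 genes 0.0269% were past it higher and 0.0134% lower. *ANKRD1* differed most, at 1.46-fold lower (1.44 to 1.49), and only 37 of the 7443 genes had a smaller log2 ratio of CPM plus 1. *AMOTL2* followed at 1.30-fold lower (1.29 to 1.31), then *TAGLN* at 1.21-fold (1.11 to 1.32), *ACTG1* at 1.20-fold (1.19 to 1.21), *CCN1* at 1.16-fold (1.15 to 1.17), *CCN2* at 1.15-fold (1.13 to 1.18), *ACTB* at 1.13-fold (1.12 to 1.13) and *MYL9* at 1.10-fold lower (1.01 to 1.20). *TPM1* had a ratio of 1.02 (1.01 to 1.03) and *SRF* of 0.994 (0.944 to 1.05). The directions of *TPM1* and *SRF* turned under 3 of 10 alternatives each and that of *MYL9* under 2. Such differences between 2 single cultures had no replicate error to be set against.

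The share of cells with at least 1 UMI was taken after 5000 UMIs had been drawn at random from every cell, which left 6725 cells of DMSO, 9200 of RAC1i and 7354 of Combo and set aside 806, 1015 and 885 shallower cells (the bar plot of positive cells). The actins were found in nearly every cell, *ACTB* in 99.7%, 99.0% and 98.2% and *ACTG1* in 97.9%, 97.8% and 95.7%. *ANKRD1* was found in 1.90% (1.59 to 2.26) of the DMSO cells, against 44.1% (43.1 to 45.2) under RAC1i and 30.8% (29.8 to 31.9) under Combo. Without thinning its shares were 7.48%, 69.4% and 57.3%. *CCN1* was found in 23.9% (22.8 to 24.9), 71.9% (71.0 to 72.8) and 67.4% (66.3 to 68.4) of cells, or 57.3%, 93.1% and 91.2% without thinning.

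Cells that held a molecule of these genes also held more of them in the treated libraries. Such a mean rises with the level of the gene even for molecules drawn at random, so it is not a separate result. Among cells with *ANKRD1* the mean was 1.13 UMIs in DMSO, 1.83 in RAC1i and 1.72 in Combo, and among cells with *CCN1* it was 1.34, 2.40 and 2.29. *AMOTL2* was found in 62.6%, 85.3% and 78.7% of cells (83.4%, 95% and 93.5% without thinning), and *TPM1* in 29.3%, 53.4% and 52.4% (69.2%, 81.2% and 81.0%). *CCN2* was found in 21.2% (20.2 to 22.2), 28.6% (27.7 to 29.5) and 25.3% (24.4 to 26.4) of cells, and 50.6%, 62.5% and 60.1% without thinning. Its share in Combo was above that in DMSO while its CPM was not, so no order of *CCN2* was read there.

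The low genes were scattered thinly. *SRF* was found in 3.46%, 6.34% and 6.13% of thinned cells, *MYL9* in 4.79%, 2.80% and 2.91%, and *TAGLN* in 0.818%, 2.47% and 2.26%. Without thinning the shares were 16.9%, 24.3% and 26.3% for *SRF*, 19.9%, 9.66% and 9.90% for *MYL9* and 3.37%, 9.89% and 9.12% for *TAGLN*. At this depth a cell without a UMI may still express the gene. No second cell type without these genes was in culture, so the share that free RNA gives was not measured.

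**Figure D2:**
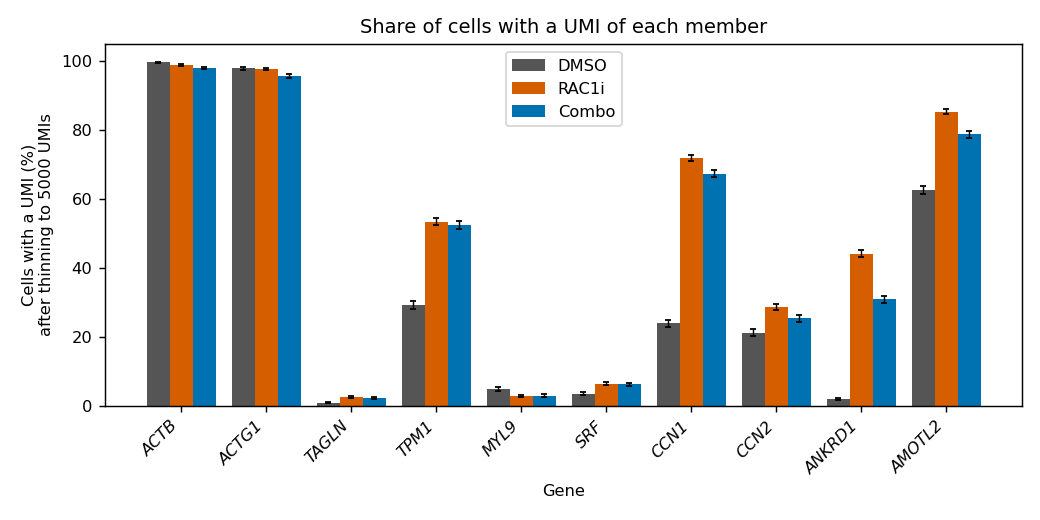
Percent of cells with at least 1 UMI of each gene after thinning to 5000 UMIs, in DMSO (grey, 6725 cells), RAC1i (orange, 9200 cells) and Combo (blue, 7354 cells), where error bars are Clopper-Pearson intervals at 95%. *ANKRD1* goes from 1.90% to 44.1% and 30.8% of cells, while *ACTB* is found in at least 98.2% of cells in each library.

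The variance of the thinned counts over their mean (the Fano factor, which is 1 for molecules drawn at random) of *ANKRD1* was 1.24, 1.86 and 2.11 for DMSO, RAC1i and Combo. For *CCN1* it was 1.42, 2.03 and 2.10, for *AMOTL2* 1.47, 2.06 and 2.01, and for *TPM1* 1.22, 1.68 and 1.68. The factor can move with the mean, which for these 4 genes was higher in the treated cells. Between the treated libraries the 2 did not always go together. The mean of *ANKRD1* was 0.807 UMIs in RAC1i and 0.530 in Combo, and that of *CCN1* was 1.73 and 1.54, while both factors were higher in Combo. *AMOTL2* had both the lower mean and the lower factor in Combo, and *TPM1* differed little. *CCN2*, the other YAP target, had 1.48, 1.47 and 1.58. *SRF* stayed at 1.01, 1.00 and 1.01. *ACTB*, whose mean was lower in the treated cells, had the larger factor there, with 2.96 for RAC1i and 3.13 for Combo against 2.38 for DMSO. The tenth of cells with the most *ANKRD1* held 45.4% of its UMIs in RAC1i and 56.9% in Combo. For *AMOTL2* that share was 33.6%, 28.1% and 30.2% in DMSO, RAC1i and Combo.

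Counted together, the 4 YAP targets were all absent from 26.4% of thinned cells with DMSO, against 3.62% under RAC1i and 6.05% under Combo. All 4 were found in 0.119%, 10.3% and 5.68% of cells. Were the genes found independently of each other, the shares with none would be 22.0%, 1.64% and 3.58% and those with all 4 would be 0.0602%, 7.75% and 4.14%. Both ends were thus more frequent than independence gives in each library.

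The distance between libraries changed with the depth of the cell for *CCN1* and *CCN2* (the plot of levels by depth). Cells were split into those with fewer than 10000 UMIs, from 10000 to 20000, from 20000 to 40000, and 40000 or more. In DMSO, *CCN1* was lowest in the shallow cells, with 21.7, 64.8, 74.2 and 68.6 CPM in that order. In RAC1i it was highest there, with 584, 373, 288 and 267 CPM, and in Combo likewise with 533, 337, 257 and 232 CPM. The ratio of RAC1i to DMSO went from 26.9 in the shallow cells (23.4 to 31.2) to 5.75 (5.39 to 6.15), 3.89 (3.79 to 3.99) and 3.88 (3.77 to 4.01). *CCN1* was higher in RAC1i at every depth.

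*CCN2* crossed over. It had 16.9, 57.9, 69.8 and 53.8 CPM in DMSO against 165, 95.5, 61.3 and 46.5 CPM under RAC1i and 148, 95.9, 57.3 and 41.0 CPM under Combo. RAC1i was 9.79 times DMSO in the shallow cells (8.29 to 11.6) and 1.65 times in the next bin (1.53 to 1.78), but 0.878 times (0.849 to 0.908) and 0.864 times (0.825 to 0.905) in the deeper bins. The nearly level sum over all cells therefore joined a higher *CCN2* in shallow cells with a lower one in deep cells. With the cells of each library ranked by depth and cut in 3 equal parts, the ratio was 3.40 in the shallowest part (3.15 to 3.67), 1.10 in the middle (1.06 to 1.14) and 0.859 in the deepest (0.830 to 0.889). With every cell weighted alike, the log2 ratio of *CCN2* was 0.85 for RAC1i and 0.67 for Combo over DMSO.

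The other genes kept their direction in most bins. The ratio of RAC1i to DMSO of *ANKRD1* was between 34.3 and 49.0 in the 4 bins, that of *TPM1* between 1.88 and 2.81, and that of *AMOTL2* was 4.36 in the shallow cells and 2.56, 2.14 and 2.14 in the others. *SRF* went from 3.05 (2.22 to 4.27) to 2.01, 1.60 and 1.83. *ACTB* was lower in RAC1i at every depth, with ratios of 0.511, 0.764, 0.753 and 0.734. *ACTG1* in RAC1i was below DMSO in the shallow cells alone, at 0.718 (0.70 to 0.737), and at 1.15, 1.15 and 1.19 in the others. In Combo the shallow cells had ratios to DMSO of 0.494 for *ACTG1* (0.479 to 0.509) and 0.408 for *ACTB* (0.398 to 0.418). Both were thus past 2-fold lower there. *ACTG1* in Combo was also below DMSO in the middle bins, and its ratio of 0.999 in the deepest bin takes in no difference. *ACTB* in Combo had ratios of 0.717, 0.677 and 0.641 in the deeper bins. *MYL9* in RAC1i had a ratio of 0.932 in the shallow cells (0.702 to 1.24), which takes in no difference, and of 0.678, 0.473 and 0.447 deeper. Its ratio of Combo to DMSO was 1.20 in the shallow cells (0.903 to 1.60), which also takes in no difference, and 0.770, 0.448 and 0.347 deeper. The bin below 10000 UMIs held 1660 cells of DMSO, 2232 of RAC1i and 1802 of Combo. The share of mitochondrial UMIs also differed between libraries, and its part in these differences was not tested.

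**Figure D3:**
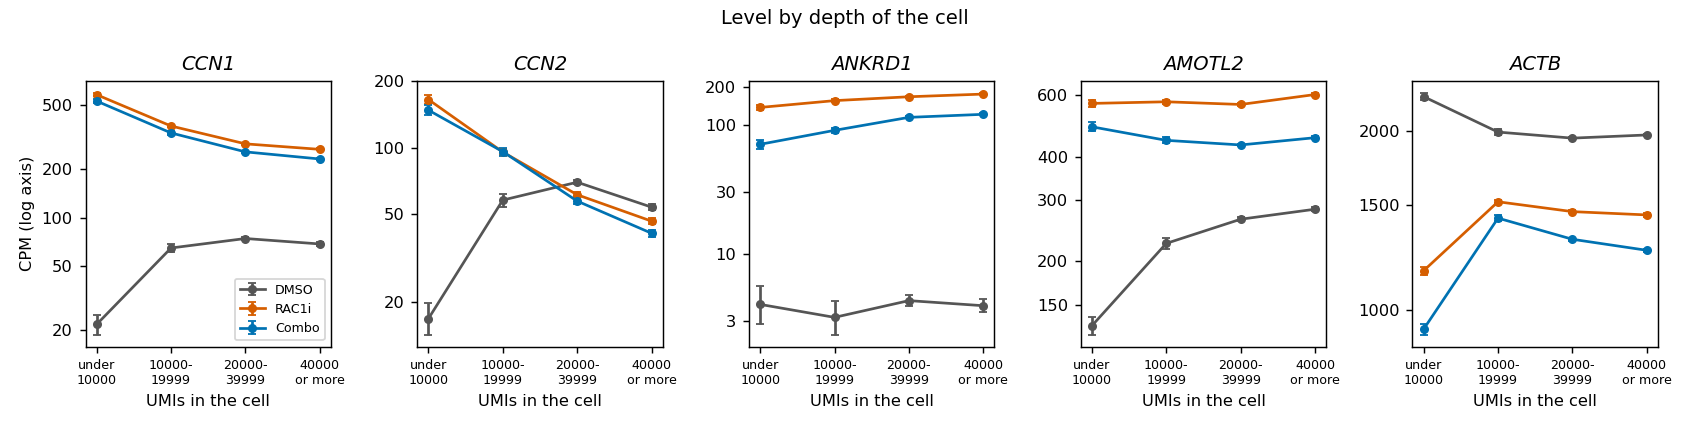
Level of *CCN1*, *CCN2*, *ANKRD1*, *AMOTL2* and *ACTB* (CPM, log axis that differs between panels) in cells of increasing depth (UMIs in the cell), in DMSO (grey), RAC1i (orange) and Combo (blue), where bars are exact Poisson intervals at 95%. The lines of *CCN2* cross between the second and the third bin, while *ANKRD1* stays between 3.18 and 4.30 CPM in DMSO and above 71 CPM in the treated libraries.

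The levels were also compared between cells with few and with many transcripts of dividing cells. Cells were split by their thinned UMIs of 20 genes of G2 and mitosis into those with 0, 1 or 2, and 3 or more. The last class held 84.4% of DMSO, 84.1% of RAC1i and 85.0% of Combo cells. It is a range and not a type of cell, since 886, 1885 and 1392 cells had 2 or 3 such UMIs and lay next to the limit. The ranges of *CCN1* and *AMOTL2* over these classes were narrow beside the gap between libraries. *CCN1* had 60.8, 63.5 and 64.3 CPM across the 3 classes in DMSO and 323, 369 and 342 CPM under RAC1i. *AMOTL2* in RAC1i had 630.2, 579 and 567 CPM. *ANKRD1* had 187, 176 and 158 CPM under RAC1i and 64.8, 104 and 107 CPM under Combo, so that the ratio of Combo to RAC1i was 0.346 (0.245 to 0.482), 0.593 (0.533 to 0.660) and 0.676 (0.648 to 0.705). The class with 0 such UMIs held 172 cells of RAC1i and 145 of Combo. *ACTB* was higher in cells with more such UMIs in each library, with 1461, 1684 and 2056 CPM in DMSO, 1173, 1246 and 1499 CPM under RAC1i and 985, 1092 and 1329 CPM under Combo. The ratio of RAC1i to DMSO of *ACTB* was 0.803, 0.740 and 0.729 in the 3 classes. *CCN2* in DMSO was higher in the cells with few such UMIs (81.9, 85.2 and 52.1 CPM) and was 77.9, 76.5 and 82.8 CPM under RAC1i. Its ratio was thus 0.951 (0.684 to 1.32), 0.898 (0.781 to 1.03) and 1.59 (1.49 to 1.69). All these levels are of thinned cells, where each cell counts alike, unlike the summed CPM. Over all thinned cells *CCN2* had a mean of 0.286 UMIs in DMSO and 0.409 in RAC1i. Depth before thinning was not held equal between classes, and its part in these ratios was not tested.

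The same pathways hold many genes beyond these 10, and lists of them were set beside all genes at 10 CPM (the plot of genes by pathway). The lists also hold those of the 10 that belong to them, so their counts and medians are not separate from the results above. In these lists, genes counted as past 2-fold have a ratio of CPM over 2 or under 1/2, and medians are of the log2 ratio of CPM plus 1. With no test, a list was described by its counts and its median, and the pathway lists share some genes with each other. The signature of YAP and TAZ had 16 of 22 genes at 10 CPM. Of these, 8 were higher and 1 lower in RAC1i than in DMSO, with a median of 0.93. Among all genes 13.1% were higher and 24.6% lower. Such shares are for scale only, as the lists too were chosen with earlier results of these data known. *ANKRD1* and *LATS2* reached 10 CPM only in the treated libraries, where they were higher. The 8 include *ANKRD1*, *CCN1* and *AMOTL2*, which are of the 10 genes. Next to *ANKRD1*, the largest ratios among those at 10 CPM were those of *LATS2*, with 6.81 CPM in DMSO, 54.0 CPM under RAC1i and 46.0 CPM under Combo, and *NUAK2*, a kinase, with 14.6, 91.9 and 73.5 CPM. *MYOF*, a membrane repair gene, had the lowest log2 ratio of the signature at -1.32, from 90.1 to 35.5 CPM. For Combo over DMSO the counts were 6 higher and 3 lower with a median of 0.67, beside 11.8% and 22.8% of all genes. The 6 include *ANKRD1* and *CCN1*. Among the genes at 10 CPM the largest ratio was again that of *ANKRD1* and the lowest that of *IGFBP3*, a binding protein of insulin-like growth factors, with 190.1 CPM in DMSO, 115 CPM under RAC1i and 66.9 CPM under Combo.

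The Hippo pathway, which governs YAP and TAZ, had 17 of 19 genes at 10 CPM. In RAC1i 7 were higher and 3 lower than in DMSO (median 0.63), and in Combo 4 were higher and 3 lower (median 0.58). The 7 include *AMOTL2*, which is of the 10 genes, and *LATS2*, which is also in the YAP and TAZ signature. Among those counted as higher, *YAP1* in RAC1i and *TEAD4* in Combo (ratio 2.02, 1.92 to 2.13) lay close to the limit of 2-fold. Over all genes 13.1% were higher and 24.6% lower in RAC1i, and 11.8% and 22.8% in Combo. With a limit of 50 CPM the Hippo median for Combo was -0.20. *YAP1* itself had 21.3 CPM in DMSO, 42.8 CPM under RAC1i and 32.3 CPM under Combo, and *WWTR1*, which encodes TAZ, had 86.1, 79.9 and 75.0 CPM. The TEAD genes split. *TEAD1* had 100.3, 238 and 189.6 CPM and *TEAD4* had 10.3, 22.5 and 20.9 CPM, while *TEAD2* had 26.2, 9.37 and 9.62 CPM and *TEAD3* had 6.60, 6.05 and 6.28 CPM. The upstream genes that hold YAP back also split. The kinases *LATS2* and *LATS1* and the scaffold *SAV1* were past 2-fold higher in RAC1i, *LATS1* with 11.2, 41.5 and 33.8 CPM and *SAV1* with 29.5, 81.9 and 76.7 CPM. *MOB1B*, which activates the LATS kinases, was 2.39-fold lower in RAC1i (2.24 to 2.55). Short of 2-fold, *NF2* was 1.58-fold, *MOB1A* 1.49-fold and the kinase *STK4* 1.43-fold lower, and the kinase *STK3* was 1.57 times its DMSO level. Also of the list, *WWC1* was 1.95 times and *AMOT* 1.53 times the DMSO level, and *AMOTL1*, below 10 CPM, was 1.89-fold lower. *VGLL4*, which competes with YAP for TEAD, was lower, with 59.4, 21.0 and 25.5 CPM.

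Of 26 cytoskeletal targets of MRTF and SRF 21 reached 10 CPM, and in RAC1i 2 were higher and 5 lower than in DMSO, with a median of -0.54. These counts were near the shares of all genes, 13.1% higher and 24.6% lower. Both that were higher are tropomyosins, *TPM1* and *TPM2*, the latter with 2.50 CPM in DMSO, 15.1 CPM under RAC1i and 11.7 CPM under Combo. *TPM2* thus reached 10 CPM only in the treated libraries. The lowest was *VCL*, which encodes vinculin of focal adhesions, at 2.80-fold lower in RAC1i (2.73 to 2.88) and 3.08-fold lower in Combo (2.99 to 3.17). *FHL2* was 2.47-fold, *PDLIM7* 2.46-fold, *TLN1* (talin) 2.35-fold and *FLNA* (filamin A) 2.16-fold lower in RAC1i. Combo over DMSO had 2 higher and 7 lower with a median of -0.78, beside 11.8% and 22.8% of all genes. The immediate early targets of SRF, 5 of 7 at 10 CPM, had 1 higher and 2 lower in both comparisons, with medians of -0.55 and -0.42. *IER2* was higher with 177, 457 and 423 CPM in DMSO, RAC1i and Combo, and *EGR1* (63.5, 19.6 and 20.3 CPM) and *FOSB* (55.7, 18.0 and 14.6 CPM) were lower. The other 2 genes of the list stayed below 3 CPM and were higher in the treated cells, *EGR2* with 0.266, 2.33 and 1.59 CPM and *EGR3* with 0.191, 1.27 and 1.75 CPM. With them included the medians turned to 0.32 and 0.16. Among SRF and its coactivators, 4 of 7 at 10 CPM, 0 were higher and 1 lower, *ELK3*, in both comparisons, with medians of 0.33 and 0.34. These medians turned to -0.15 and -0.11 when totals left out the mitochondrial genes, and were 0.01 over all 7 genes in both comparisons. Such totals moved the RAC1i median of all genes only from -0.20 to -0.27. They also raise CPM, so that *MRTFB*, at 9.58 CPM in DMSO and lower in the treated libraries, can pass the limit of 10 CPM. *MYOCD*, the coactivator of cardiac and smooth muscle, had 0, 2 and 1 UMIs in the 3 libraries.

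Of 26 genes that link RAC1 to branched actin 24 reached 10 CPM, of which 0 were higher and 7 lower in RAC1i than in DMSO (median -0.23) and 0 higher and 6 lower in Combo (median -0.36). Of all genes 13.1% and 11.8% were higher, and the counts of lower genes were near the 24.6% and 22.8% of all genes that were lower, and the medians of all genes were -0.20 and -0.17. *ARPC1B*, a subunit of the Arp2/3 complex, was 5.41-fold lower in RAC1i (5.33 to 5.50), from 474 to 87.6 CPM, and 3.96-fold lower in Combo (3.90 to 4.01). *VAV3*, an exchange factor that loads RAC1 with GTP, was 4.94-fold lower in RAC1i (4.8 to 5.09) and 6.52-fold lower in Combo (6.30 to 6.75). The highest log2 ratios were those of *WASF1* in RAC1i (0.73) and *ARPC5L* in Combo (0.69). Of the 20 genes of G2 and mitosis 0 were higher and 6 lower in RAC1i (median -0.67) and 0 higher and 5 lower in Combo (median -0.69). Of all genes 13.1% and 11.8% were higher, and the counts of lower genes were again near the 24.6% and 22.8% of all genes. Log2 ratios ran from *MKI67* at -1.42 and -1.36 to *HMMR* at 0.36 and 0.28.

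Between Combo and RAC1i 0 genes of these lists were past 2-fold in either direction, beside 0.0269% higher and 0.0134% lower of all genes. Medians ran from -0.25 for the YAP and TAZ signature to 0.06 for G2 and mitosis. *IGFBP3*, at 1.72-fold lower in Combo (1.69 to 1.76), had the lowest log2 ratio of the signature, and *YAP1* that of the Hippo pathway at -0.39. The lowest of the other lists were *CALD1* (-0.37), *ELK4* (-0.08), *FOSB* (-0.28), *VAV3* (-0.38) and *TOP2A* (-0.12), and the highest of each list were *LIMA1* (0.11), *ELK1* (0.04), *FOS* (0.13), *CCDC80* (0.10), *VGLL4* (0.27), *ARPC1B* (0.45) and *CENPE* (0.37).

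**Figure D4:**
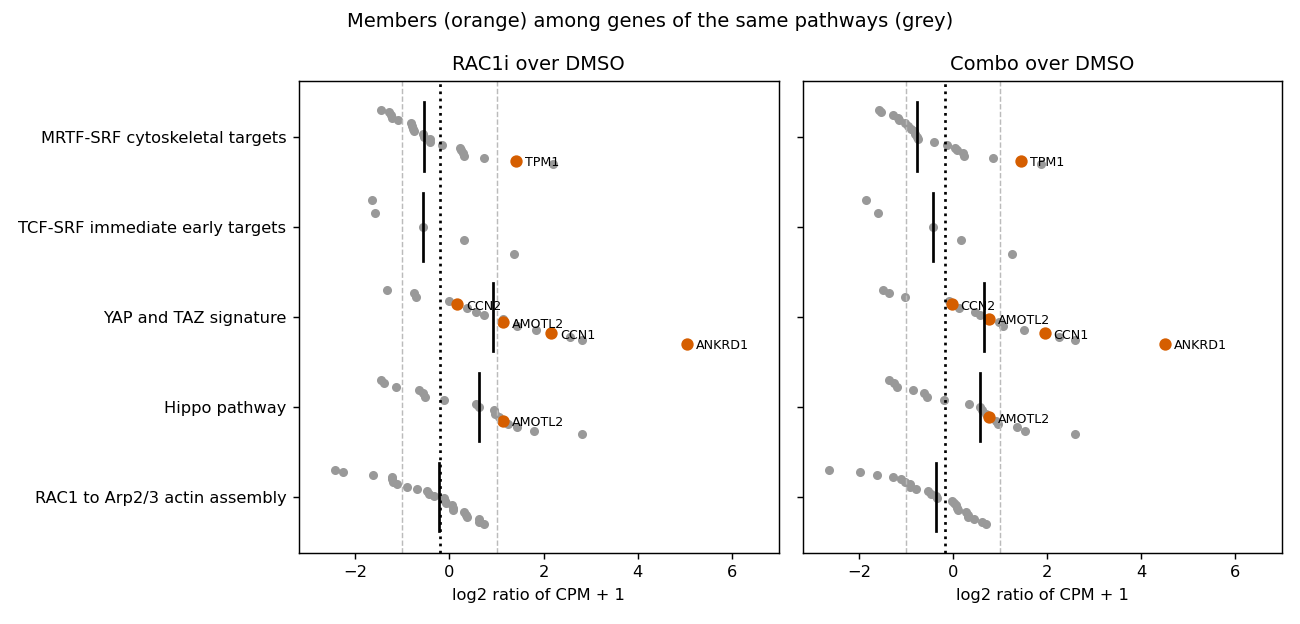
Log2 ratio of CPM plus 1 for RAC1i over DMSO (left) and Combo over DMSO (right), where each point is a gene of the pathway on the vertical axis that reached 10 CPM in either library. Genes of the 10 are orange, short black lines are list medians, the dotted line is the median of all genes and the dashed lines mark 2-fold; the YAP and TAZ list has its median at 0.93 (left) and the cytoskeletal targets of MRTF and SRF at -0.54.

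Co-expression was described within each library by Pearson's r of log2(UMIs + 1) over the thinned cells, for the 45 pairs of the 10 genes (the plot of correlations). Cells of a library share their capture and chemistry, and r is held down in sparse counts, so the values describe these cells and carry no p. Most pairs lay near 0. Many of them hold *TAGLN*, *MYL9* or *SRF*, each found in at most 6.34% of thinned cells. That leaves such pairs little room for an r, so the counts below say little about them. The median r in DMSO, RAC1i and Combo was 0.02, 0.01 and -0.00, and 41, 40 and 37 of the 45 pairs were within 0.1 of 0. The highest was that of the actins, *ACTB* with *ACTG1*, at 0.30 in DMSO, 0.35 in RAC1i and 0.36 in Combo, which ran over 6 alternatives from 0.19 to 0.41, from 0.29 to 0.54 and from 0.29 to 0.53.

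Among the YAP targets, *CCN1* with *CCN2* had an r of 0.14, 0.18 and 0.17 and *CCN1* with *AMOTL2* of 0.13, 0.14 and 0.13 in DMSO, RAC1i and Combo. These values moved with the processing. Over 6 alternatives the r of *CCN1* with *CCN2* ran from 0.08 to 0.38 in DMSO, from 0.10 to 0.30 in RAC1i and from 0.12 to 0.28 in Combo, and that of *CCN1* with *AMOTL2* from 0.07 to 0.35, from 0.11 to 0.23 and from 0.09 to 0.22. *ANKRD1* with *AMOTL2* went from 0.04 in DMSO to 0.22 in RAC1i and 0.18 in Combo, and *CCN1* with *ANKRD1* from 0.03 to 0.13 and 0.12. In DMSO *ANKRD1* was found in 128 thinned cells, which leaves little room for an r. *CCN2* and *AMOTL2* had 0.10 in DMSO and 0.03 and 0.00 in the treated cells. *SRF* had an r within 0.03 of 0 with each of the cytoskeletal targets in every library. It was found in only 3.46%, 6.34% and 6.13% of thinned cells, which likewise leaves little room for an r.

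Of the 8 pairs of *ACTB* or *ACTG1* with a YAP target, 3 had an r below -0.1 in Combo, with -0.15 for *ACTB* with *CCN1*, -0.15 for *ACTG1* with *CCN1* and -0.10 for *ACTB* with *AMOTL2*. Over 6 alternatives they ran from -0.22 to -0.01, from -0.21 to -0.04 and from -0.14 to 0.0041. The values nearest 0 were those of cells without a UMI of the mitosis list. These were only 145 cells of Combo, against 7354 in the main r. So few cells leave r uncertain, and no change of r in them was read. The same pairs had -0.09, -0.09 and -0.08 in RAC1i and 0.01, 0.04 and -0.01 in DMSO. Against log10 of the UMIs of the cell before thinning, *CCN1* had an r of 0.13 (DMSO), -0.20 (RAC1i) and -0.19 (Combo), *AMOTL2* of 0.20, 0.04 and 0.02, *ACTB* of -0.06, 0.10 and 0.13, and *ACTG1* of 0.00, 0.17 and 0.23. Against the mitochondrial share *ACTB* had -0.24, -0.07 and -0.19 and *AMOTL2* 0.18, -0.09 and -0.03. *CCN1* had 0.14, 0.05 and 0.11 and *ACTG1* -0.19, -0.14 and -0.18. The part of depth and of the mitochondrial share in the correlations was not tested.

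**Figure D5:**
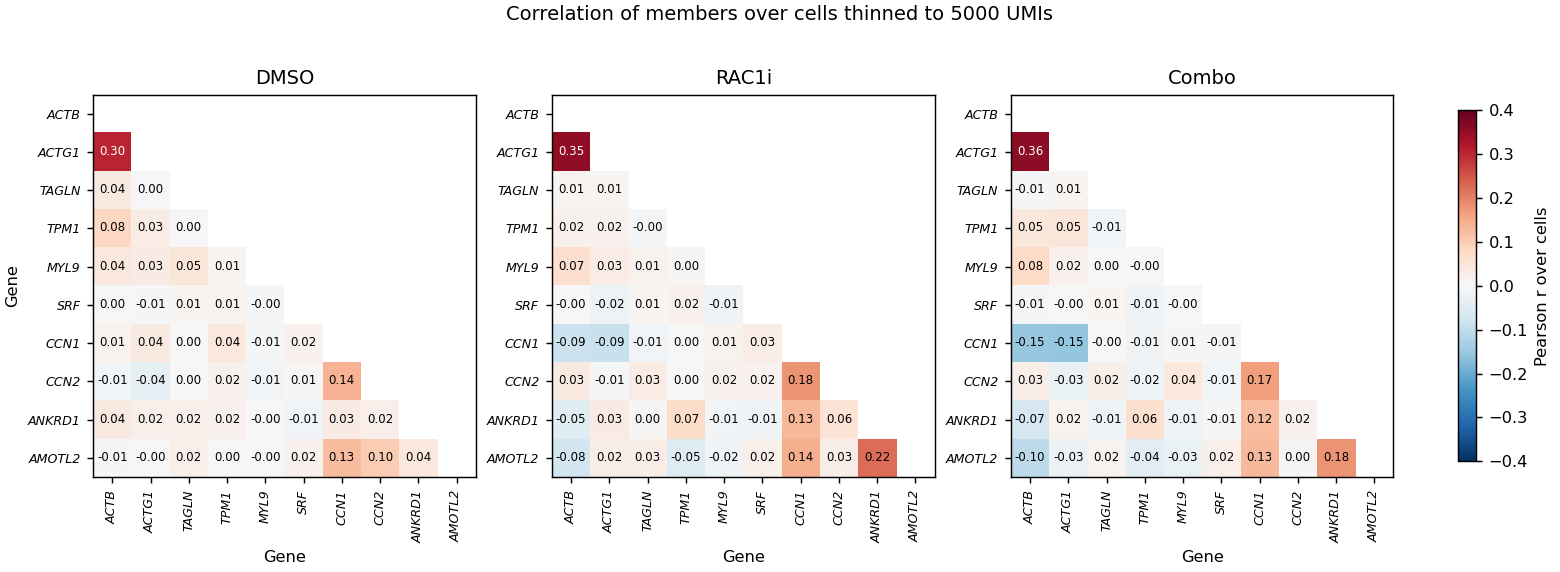
Pearson's r over cells thinned to 5000 UMIs for each pair of the 10 genes (both axes) in DMSO, RAC1i and Combo, from blue (negative) to red (positive). The pair of actins is the darkest in each panel (0.30, 0.35 and 0.36), and *ANKRD1* with *AMOTL2* is at 0.04 in DMSO and at 0.22 and 0.18 in the treated libraries.

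The genes most like each of the 10 over cells were sought among all genes with at least 50 CPM, which were 2907 in DMSO, 2768 in RAC1i and 2772 in Combo. Only genes of the 10 with at least 20 CPM were used. For *CCN1* the nearest genes in DMSO were the mitochondrial transcripts *MT-CO2* (0.18), *MT-ND4* (0.17) and *MT-CYB* (0.17). In RAC1i they were *ID1* (0.37), an inhibitor of bHLH factors, *NFKBIA* (0.36), which encodes the inhibitor of NF-kB, and *JUNB* (0.35), a factor of AP-1, and in Combo *NFKBIA* (0.34), *ID1* (0.34) and *JUNB* (0.33). *CCN2* was nearest to *MT-CO2* (0.18), *NEAT1* (0.18) and *MT-CO1* (0.17) in DMSO, to *GADD45B* (0.30), *ID2* (0.26) and *MT2A* (0.26) in RAC1i and to *GADD45B* (0.31), *MT2A* (0.25) and *TMSB10* (0.24) in Combo. For both genes the nearest genes in RAC1i were other genes than in DMSO. The mean of *CCN1* was 0.320 thinned UMIs in DMSO and 1.73 in RAC1i, and r is held down at low counts. Against log10 of the UMIs of the cell *CCN2* had an r of 0.10, -0.20 and -0.21 in DMSO, RAC1i and Combo. Against the mitochondrial share it had 0.14, 0.07 and 0.11. The part of level, depth and mitochondrial share in which genes were nearest was not tested.

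*ANKRD1* was nearest to the small nucleolar RNA host genes *SNHG8* (0.27) and *SNHG17* (0.25) and to *EIF4A2* (0.24) in RAC1i, and to *ATF3* (0.24), *SNHG8* (0.23) and *SNHG17* (0.22) in Combo. *AMOTL2* was nearest to *NEAT1* (0.27), *MALAT1* (0.26) and *CD47* (0.26) in DMSO, to *CNBP* (0.29), *CCNL1* (0.27) and *SNHG17* (0.23) in RAC1i and to *CCNL1* (0.27), *CNBP* (0.25) and *TRA2B* (0.22) in Combo. With *NEAT1*, a nuclear long noncoding RNA, *AMOTL2* had 0.27 in DMSO and 0.05 and 0.06 in the treated cells. Both genes thus shared *SNHG17* among their nearest genes in RAC1i.

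*ACTB* was nearest to the tubulin *TUBA1B* (0.34), *ACTG1* (0.30) and *S100A10* (0.29) in DMSO, to *ACTG1* (0.35), *PRDX1* (0.26) and *ANXA2* (0.26) in RAC1i, and to *ACTG1* (0.36), *ANXA2* (0.35) and *PRDX1* (0.35) in Combo. *ACTG1* was nearest to *ACTB* in each library, followed by *TUBA1B* (0.20) and *ANXA2* (0.19) in DMSO, *ANXA2* (0.27) and *HSP90AA1* (0.21) in RAC1i and the same genes in Combo (0.30 and 0.25). *TPM1* had *TMSB10* (0.10), *ACTB* (0.08) and *S100A10* (0.08) in DMSO, *RHOBTB3* (0.18), *NAP1L1* (0.11) and *KTN1* (0.10) in RAC1i and *RHOBTB3* (0.21), *PABPC1* (0.15) and *KTN1* (0.12) in Combo. The order of neighbours this close in r is not firm.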

How the data were processed

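Single cells of OVCAR3 in 3 libraries (DMSO, RAC1i and Combo) were used, grouped by the treatment in the labels; doses are those of the study's text. The counts deposited by the authors are UMIs per gene and cell barcode, made with Cell Ranger 4.0.0 on GRCh38, unnormalized. About 10000 cells per library were targeted, and 10071, 11772 and 9757 barcodes were deposited. Following the limits in the study's methods, cells entered with more than 1000 genes, no more than 20% of UMIs from mitochondrial genes, and log10 genes over log10 UMIs above 0.8. No doublet was removed.

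UMIs were summed per library with Python 3.11.15, numpy 2.4.6, scipy 1.17.1 and pandas 2.3.3. Intervals are exact (Poisson for CPM, conditional for ratios, Clopper-Pearson for shares) and leave out all error but that of counting, as molecules of 1 cell are not independent. A gene was called past 2-fold on the ratio of CPM where the larger of the 2 levels reached 10 CPM. Ratios of the 10 genes are plain ratios of CPM, and list medians used a pseudocount of 1 CPM. Shares, Fano factors, r and the levels by UMIs of the mitosis list used cells thinned to 5000 UMIs. The calculations were tested on simulated data.

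The 10 genes, the lists and the markers were chosen with earlier results of these data known. Named were these genes, *RAC1*, *EZH2*, SRF and its coactivators, *YAP1*, *WWTR1*, the TEAD genes, the gene with the highest and the lowest ratio of each list, and the 3 genes with the highest r. *FHL2*, *PDLIM7*, *TLN1*, *FLNA*, *SAV1*, *NUAK2*, *LATS1*, *MOB1A*, *MOB1B*, *NF2*, *STK3*, *STK4*, *WWC1*, *AMOT*, *AMOTL1*, *EGR2*, *EGR3*, *EPCAM*, *PAX8*, *WT1* and the muscle actins were named after their values were seen. The results of 1 list are not reported here. Alternatives were other limits on cells, TMM (edgeR 4.0.16) or size factors (DESeq2 1.42.0), totals that leave out mitochondrial genes, CPM averaged over cells, other limits on CPM, other depths and seeds of thinning, and cells without UMIs of the mitosis list. Cells with at least 10000 UMIs, and all genes with a mean of at least 1 CPM, were added after seeing the data.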

Additional observations from a re-analysis of the deposited data

How the results depend on the processing

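With 1 library per condition, no replicate could be left out and no result had a replicate error. No paired analysis was possible because each group holds 1 library. Of 300 recomputed log2 ratios of the 10 genes, 150 left the counting interval of the main value. No ratio past 2-fold turned direction, while that of *ACTG1* did under 2 of 10 alternatives and that of *CCN2* under 5 for Combo over DMSO, and *TPM1*, *SRF* and *MYL9* under 3, 3 and 2 for Combo over RAC1i. The number of genes past 2-fold for RAC1i over DMSO was 4, all higher, and 5 with CPM averaged over cells (adding *SRF*, higher) or with all 10 genes taken at a mean of at least 1 CPM (adding *TAGLN*, higher). For Combo over DMSO it was 3, all higher, 4 with totals without mitochondrial genes (adding *MYL9*, lower), 4 with CPM averaged over cells (adding *SRF*, higher) and 5 when all 10 genes were taken at a mean of at least 1 CPM, which adds *TAGLN* (higher) and *MYL9* (lower). At a mean of at least 1 CPM, 14.6% of 13739 genes were higher and 28.7% lower for RAC1i, and 13.2% and 27.1% of 13671 genes for Combo. Of 810 recomputed values of r, 286 moved beyond the interval of the main value. That interval is that of all thinned cells, also where only cells without a UMI of the mitosis list were used. Among pairs past 0.1, 1 turned direction, *ACTB* with *AMOTL2* in Combo. Its r was -0.10 over all thinned cells and 0.0041 in the 145 cells without a UMI of the mitosis list, too few to read a change. Of 135 list medians 38 moved, and of 150 shares of cells 92 did. Medians of the lists reported that changed sign were, for RAC1i and Combo over DMSO, those of the actins (-0.13 and -0.35, or 0.24 and 0.13 with no minimum CPM), of the immediate early targets (-0.55 and -0.42, or 0.32 and 0.16 with no minimum CPM) and of SRF and its coactivators (0.33 and 0.34, or -0.15 and -0.11 with totals without mitochondrial genes). For Combo over DMSO that of the Hippo pathway was 0.58, or -0.20 with a limit of 50 CPM. For Combo over RAC1i those of SRF and its coactivators (with TMM scaling) and of G2 and mitosis (with a limit of 50 CPM), which lay within 0.1 of 0 both before and after, also did. *TAGLN* and *MYL9* rested on 288 to 1901 UMIs per library.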
